A study of Mus musculus with 19 samples.

Results

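The interleukin-1 (IL-1) system was followed through 10 genes in the liver, spleen and heart of mice given oil palm phenolics or water during an atherogenic diet. The genes were chosen by their annotated symbols and were Il1r2, Il1r1, Il1rap, Il1rn, Il1a, Il1b, Il18, Il18bp, Casp1 and Casp4. All of their probes were taken, which gave 17 of the 24048 probes of the Illumina MouseRef-8 array, and 10 of the 14776 genes that carried a name there. The list was drawn up because of the response of Il1r2 to the phenolics in the spleen. Spleen values under the phenolics are therefore given as a description, without a test. The liver and heart responses and the levels in the 3 organs on water, other than those of Il1r2, were tested.

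All animals were male BALB/c mice, 12 weeks of age, fed the atherogenic diet for 6 weeks. Mice of the AD + DW group drank distilled water and the AD + OPP group drank oil palm phenolics (OPP), a water extract of the oil palm fruit, at 1500 ppm gallic acid equivalent. There were 4 liver, 3 spleen and 3 heart arrays for AD + DW, and 3 arrays per organ for AD + OPP. By the methods, each group held 10 mice at 5 to a cage, RNA was selected by its integrity and outlier arrays were removed by the authors, so the arrays are a selected set, and OPP and cage cannot be told apart. The arrays of mice on the normal diet were not analysed here.

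IL-1 alpha and IL-1 beta, the products of Il1a and Il1b, are early cytokines of inflammation that act on almost every cell type. They bind the receptor encoded by Il1r1, which then recruits the accessory protein of Il1rap and signals through Myd88 and the Irak kinases. The system carries its own brakes. Il1rn encodes an antagonist that occupies the receptor without signaling, and Il1r2 encodes a decoy receptor that captures IL-1 but lacks the signaling domain, and which neutrophils are known to carry. IL-18 is a related cytokine that is held in check by the binding protein of Il18bp. Pro-IL-1 beta and pro-IL-18 are cut to their active forms by caspase-1, which inflammasomes activate. The mouse gene Casp4 encodes caspase-11, which responds to bacterial lipopolysaccharide inside the cell.

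The windows around the start sites of Il1r2, Casp4 and Il18 are shown because these 3 members were the ones whose spleen groups did not overlap. They were taken from RefSeq (GRCm38.p6) and run from 250 bases before to 50 bases after a start site, 5′ to 3′ on the strand of the gene. The capitals mark matches to 7 searched motifs on either strand, namely the E-box CACGTG, the TATA box TATAAA, the ETS core GAGGAA, the AP-1 site TGANTCA, the C/EBP site TTNCNNAA, the STAT site TTCNNNGAA and the kappa-B site. The Il1r2 window lay at chr1:40085843-40086142 on the plus strand, the first of the Casp4 windows at chr9:5308599-5308898 on the plus strand and the Il18 window at chr9:50554450-50554749 on the plus strand.
Il1r2: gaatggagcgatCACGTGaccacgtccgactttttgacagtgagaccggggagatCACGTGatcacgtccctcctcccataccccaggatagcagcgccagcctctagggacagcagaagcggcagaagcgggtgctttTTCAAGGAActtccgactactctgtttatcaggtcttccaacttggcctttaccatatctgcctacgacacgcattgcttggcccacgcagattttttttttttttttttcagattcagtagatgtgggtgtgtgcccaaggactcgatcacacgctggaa
Casp4: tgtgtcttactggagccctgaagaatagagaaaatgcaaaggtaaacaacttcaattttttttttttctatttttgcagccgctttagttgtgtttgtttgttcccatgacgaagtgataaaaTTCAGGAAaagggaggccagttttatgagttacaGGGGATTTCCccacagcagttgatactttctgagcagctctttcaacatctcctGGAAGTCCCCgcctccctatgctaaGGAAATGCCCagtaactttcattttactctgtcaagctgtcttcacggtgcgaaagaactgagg
Il18: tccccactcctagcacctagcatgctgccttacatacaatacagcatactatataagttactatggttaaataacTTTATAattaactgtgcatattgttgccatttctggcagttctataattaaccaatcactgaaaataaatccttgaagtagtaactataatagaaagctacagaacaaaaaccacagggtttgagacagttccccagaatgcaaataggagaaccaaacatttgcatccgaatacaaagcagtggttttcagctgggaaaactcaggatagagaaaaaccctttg

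The Il1r2 window held 2 E-boxes and 1 STAT match. The E-box was found in 7.15% of the 32851 windows of the RefSeq table and the STAT motif in 8.3%. The Casp4 window held 3 kappa-B matches, which start 93, 39 and 14 bases before the start site, and 1 C/EBP match. The kappa-B motif was present in 5.56% of all windows and the C/EBP motif in 40.7%. The Il18 window held only a TATA box match, at 175 bases before the start site, a motif of 13.6% of all windows. All 10 members had at least 1 window in the table, 14 windows in all, and kappa-B matches were also found for Il1r1 and Il1rn. None of the 7 motifs was found in the window of Il1rap. The AP-1 motif, present in 7.81% of all windows, was found for Il1rn and Il1a, and the ETS motif, in 28.3% of all windows, for Il1a and Casp1. In the Il1a and Il1b windows a TATA box started 32 and 31 bases before the start site. The E-box, AP-1 and STAT patterns read the same on both strands. In Il1r1 a kappa-B match and in Il1a an ETS match overlapped a C/EBP match. No binding was measured here.

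In the deposited values, the normalized signal of each array was a linear rescaling of its non-normalized signal, set within each organ. Levels can therefore be compared within an organ only, unless the arrays are brought to a common scale. A probe was called detected at a detection p under 0.01, and 5863 to 7576 probes were detected per array. Spleen AD + DW replicate 3 stood apart from the other spleen arrays, with the fewest detected probes and a lowest detected signal of 142.7 against 53 to 67.4 on the others. Heart AD + DW replicate 3 had high signals of hepatocyte markers. The mean log2 signal of 4 hepatocyte markers was 8.79 there against 5.43 to 6.06 on the other 5 heart arrays, and Apoa2, a liver apolipoprotein, was at 549.2 against 25.9 to 83.2. Neutrophil markers differed between arrays of the same group in the liver and the heart. Their mean log2 signal lay between 4.81 and 9.52 on liver AD + DW arrays, and between 4.83 and 9.52 on liver AD + OPP arrays. The labels give neither the mouse nor the cage of an array, so p-values measure only the spread between these arrays, which may be technical.

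The 10 genes were read by unequal numbers of probes. Il1rap had 6, Il1r1 and Casp4 had 2 each and the others had 1. Of the 17 probes, 7 were detected on no array. These included the only probe of Il1rn, whose signals ran from -74.3 to -15.8, and the only probe of Il1a, whose signals ran from -22.7 to 64.7. No level of either gene was thus measured in any organ. The other 5 were second probes of Il1r1, Il1rap and Casp4, so that genes with a detected probe also had probes that were not above background. The transcript that each probe reads is not given in the tables used here.

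**Figure D1:**
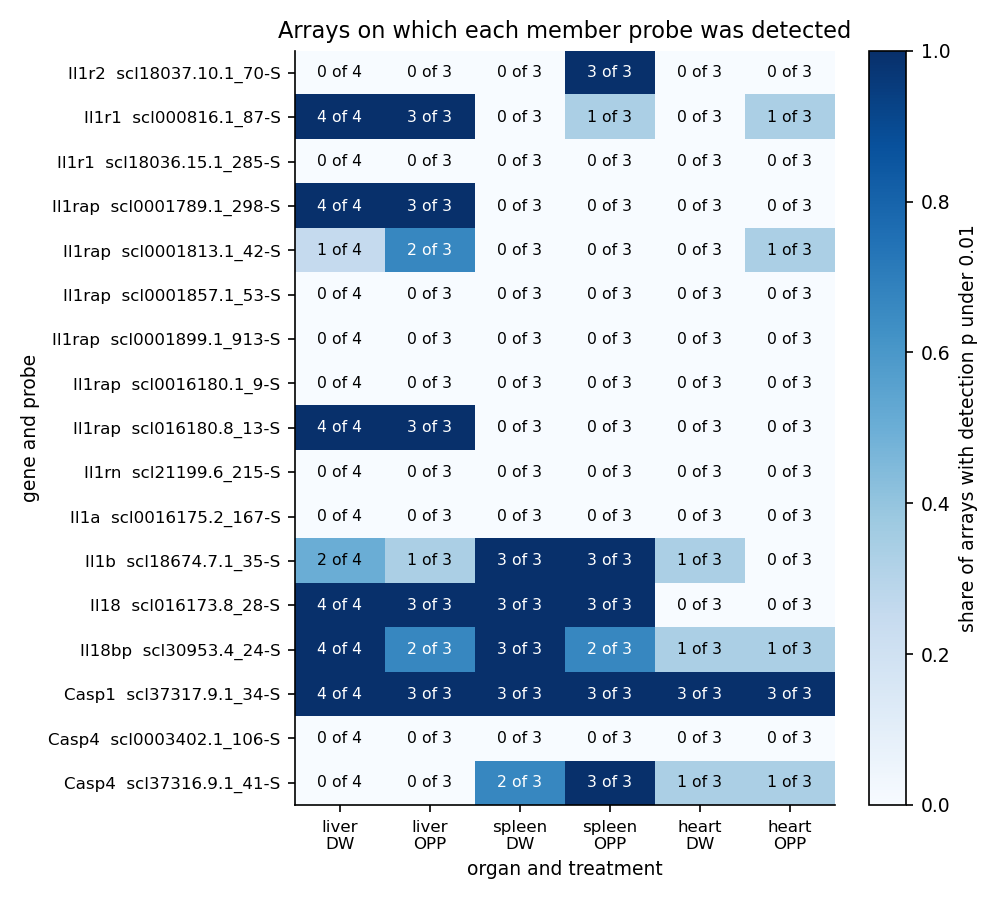
Number of arrays of each organ and treatment on which each of the 17 member probes (rows) had a detection p under 0.01. The color gives the share of arrays. Il1r2 was detected on the 3 spleen AD + OPP arrays and on no other, Casp1 was detected on all 19, and 7 probes were detected on none.

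Il1r2 was detected in the spleens of the AD + OPP group and on no other array of the 19. Its spleen signals were 517.5, 286.2 and 594.8 in AD + OPP replicates 1 to 3, against -3.8, 37.6 and 41.3 in AD + DW replicates 1 to 3. The groups did not overlap, as was so with higher OPP signals for 11.1% of the 6664 spleen probes, and the lowest OPP spleen was far above the highest water spleen. The means were 466 ± 161 (SD, n = 3) and 25 ± 25 (SD, n = 3). Since the AD + DW signals were not above background, their level is only a bound. With each of those arrays set to its lowest detected signal, Il1r2 was at least 5.38-fold higher under OPP, and on leaving out AD + DW replicates 1, 2 and 3 in turn the bound was 4.86-fold, 4.54-fold and 7.07-fold. The log2 fold change of floored signals was 4.16 with a standard error of 0.57, a value that depends on the floor of 10. It was 4.52 without AD + DW replicate 3.

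In the liver and the heart no array gave an Il1r2 signal above background. The liver signals were -3.9, 12.0, 4.1 and 28.1 in AD + DW replicates 1 to 4 and 68.0, 79.0 and -7.6 in AD + OPP replicates 1 to 3. The lowest detected signal of any probe was 94.5 in AD + OPP replicate 1 and 107.8 in replicate 2, so that both of the higher livers stayed under it. In the heart the signals were 3.5, 23 and 23.9 on water and 40.1, 16.1 and 44.9 on OPP. In both organs the groups overlapped, and a difference was not detectable at this signal over background.

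**Figure D2:**
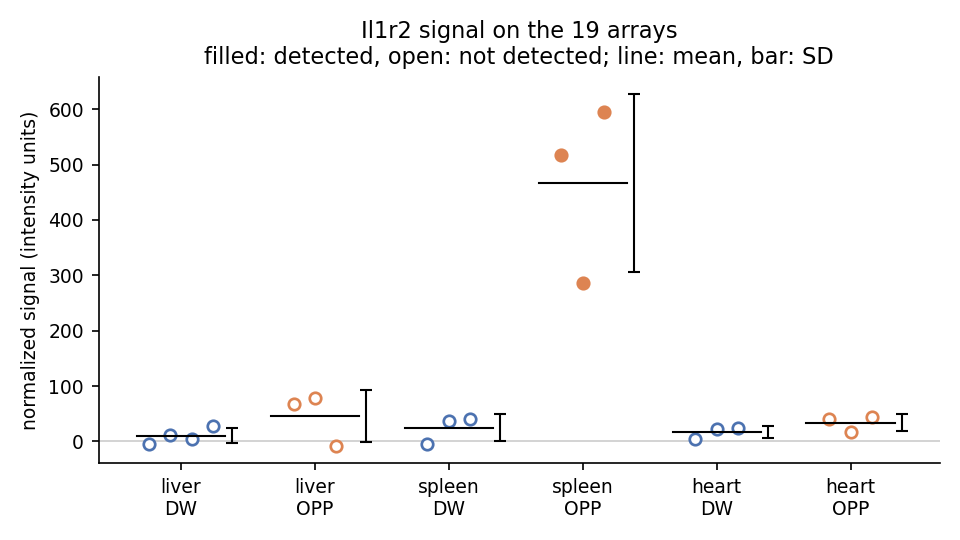
Normalized Il1r2 signal (intensity units, linear axis) of the 19 arrays by organ and treatment, with the group mean (line) and SD (bar). Filled points were detected and open points were not. The 3 spleen AD + OPP arrays sit at 286.2 to 594.8 and all other arrays at or below 79.0.

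The neutrophil markers, a list of 14 genes drawn up with earlier results of these data known, moved with Il1r2 in the spleen. Of these genes 12 had a probe. On water spleens their log2 signals averaged 10.01, 11.3 and 10.1 in replicates 1 to 3, and on OPP spleens 12.17, 12.27 and 12.1. All 12 had a higher mean log2 signal under OPP, and for 10 the groups did not overlap, beside 11.1% of all spleen probes higher without overlap. B cell markers moved the other way, with all 6 measured genes lower without overlap, beside 12.3% of all spleen probes. Their mean log2 signals were 9.40 to 9.99 on water and 7.87 to 8.59 on OPP. T cell markers were also lower, in 6 of 6 measured genes, without overlap in 5. Macrophage markers were lower in 5 of 5, without overlap in 3, and red cell markers in 4 of 4, without overlap in 1. In whole organs a change in the number of cells of a type and a change of RNA per cell cannot be told apart. The Il1r2 signals of the water spleens were all below detection, so they could not be ranked against these markers. AD + DW replicate 2 had an Il1r2 signal of 37.6, which was not detected. Its Camp signal of 18376.2 and Ngp signal of 3254.6 lay inside the ranges of the OPP spleens, 14625.4 to 24667.7 and 2186.8 to 9008.9. The markers other than Camp and Ngp were all below the range of the OPP spleens on this array. S100a8, at 35264.6, was close to the 36702.2 to 42068.5 of the AD + OPP arrays. Mpo stood at 12356.9 against 24797.2 to 30845.8 and Mmp9 at 832.6 against 1486.6 to 2313.9. Retnlg was at 1417.7 against 3324.8 to 4936.3, and Chil3 at 910.7 against 2555.0 to 3166.3. Camp, S100a8 and Mpo encode a granule peptide, a calcium-binding protein and a peroxidase of neutrophils. Within the AD + OPP spleens, replicate 2 had the lowest Il1r2 signal and the highest marker mean, though these means spanned only 12.1 to 12.27. The part of neutrophil content in the Il1r2 values was not tested.

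In the livers, AD + DW replicate 4 and AD + OPP replicates 1 and 2 had neutrophil marker means of 9.52, 9.52 and 9.26 beside Il1r2 signals of 28.1, 68.0 and 79.0. The means of the other livers were 4.81, 4.89 and 7.68 on water and 4.83 on OPP, beside Il1r2 signals of at most 12.0. In the hearts the marker means were 4.51, 7.98 and 4.73 in AD + DW replicates 1 to 3, beside Il1r2 signals of 3.5, 23 and 23.9. In AD + OPP replicates 1 to 3 they were 8.85, 6.67 and 6.76, beside Il1r2 signals of 40.1, 16.1 and 44.9. These Il1r2 signals of liver and heart were all below detection, so the order of these arrays by Il1r2 could not be set against the markers.

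**Figure D3:**
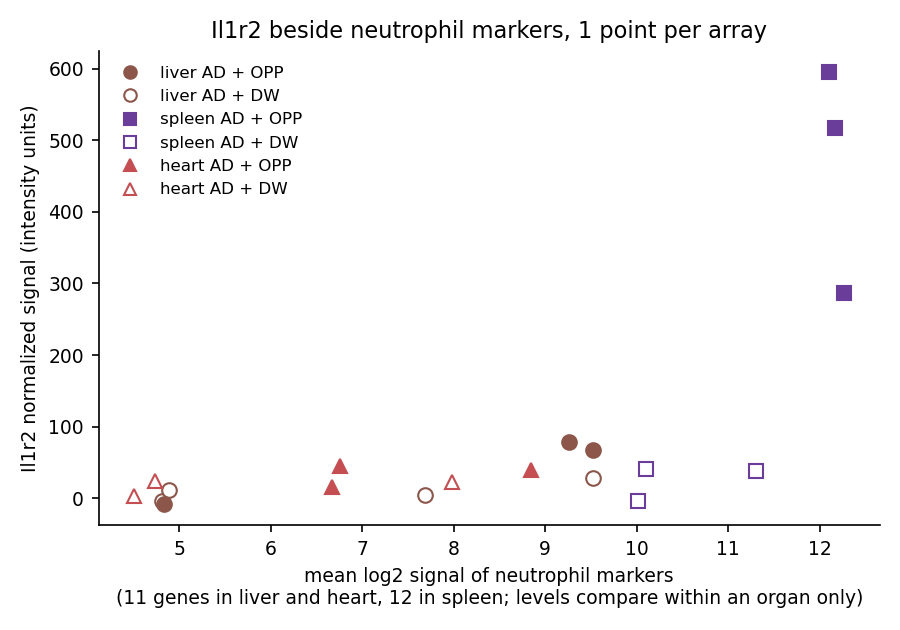
Il1r2 signal (y axis, intensity units) against the mean log2 signal of the neutrophil markers (x axis), 1 point per array, with organ by shape and AD + OPP arrays filled. Both scales compare within an organ only. Spleen AD + DW replicate 2, at a marker mean of 11.3, had an Il1r2 signal of 37.6. No water spleen had a detected Il1r2 signal, so they cannot be ranked by it. The 3 OPP spleens lie at 286.2 to 594.8 at marker means of 12.1 to 12.27.

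The receptor genes proper were measured in the liver. Il1r1 was detected on all 7 liver arrays with its probe scl000816.1_87-S, at 93.4, 114.6, 104.9 and 162.8 on water and 127.7, 169.7 and 137.8 on OPP. The groups overlapped, and the log2 difference of 0.31 (standard error 0.21) had an adjusted p of 0.684 in limma. It was 0.19 on leaving out AD + OPP replicate 2, 0.20 on leaving out AD + DW replicate 1 and 0.47 on leaving out AD + DW replicate 4. After median scaling of the non-normalized signals, which still contain the background, it was 0.07. In the spleen and the heart Il1r1 was detected on 1 array each, AD + OPP replicate 3 in the spleen at 69.1 and AD + OPP replicate 1 in the heart at 66.0. Il1rap was read strongly in the liver by 2 of its 6 probes. With scl016180.8_13-S the signals were 1907.3, 2090.0, 1793.4 and 1525.8 on water and 1523.8, 1252.3 and 1784.9 on OPP. With scl0001789.1_298-S they were 1560.3, 2475.3, 1347.9 and 1196.8 on water and 1932.7, 890.5 and 1510.1 on OPP. The groups overlapped on both probes. The log2 differences were -0.27 (standard error 0.17, limma adjusted p 0.671) and -0.20 (standard error 0.32, limma adjusted p 0.870). The first was -0.14 when AD + OPP replicate 2 was left out, and the second turned positive when AD + DW replicate 2 (0.02) or AD + OPP replicate 2 (0.11) was left out. The Il1rap probe scl0001813.1_42-S was detected on 3 liver arrays and 1 heart array. In the spleen and heart the 2 liver probes were at or below 25.5 on every array and were detected on none.

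**Figure D4:**
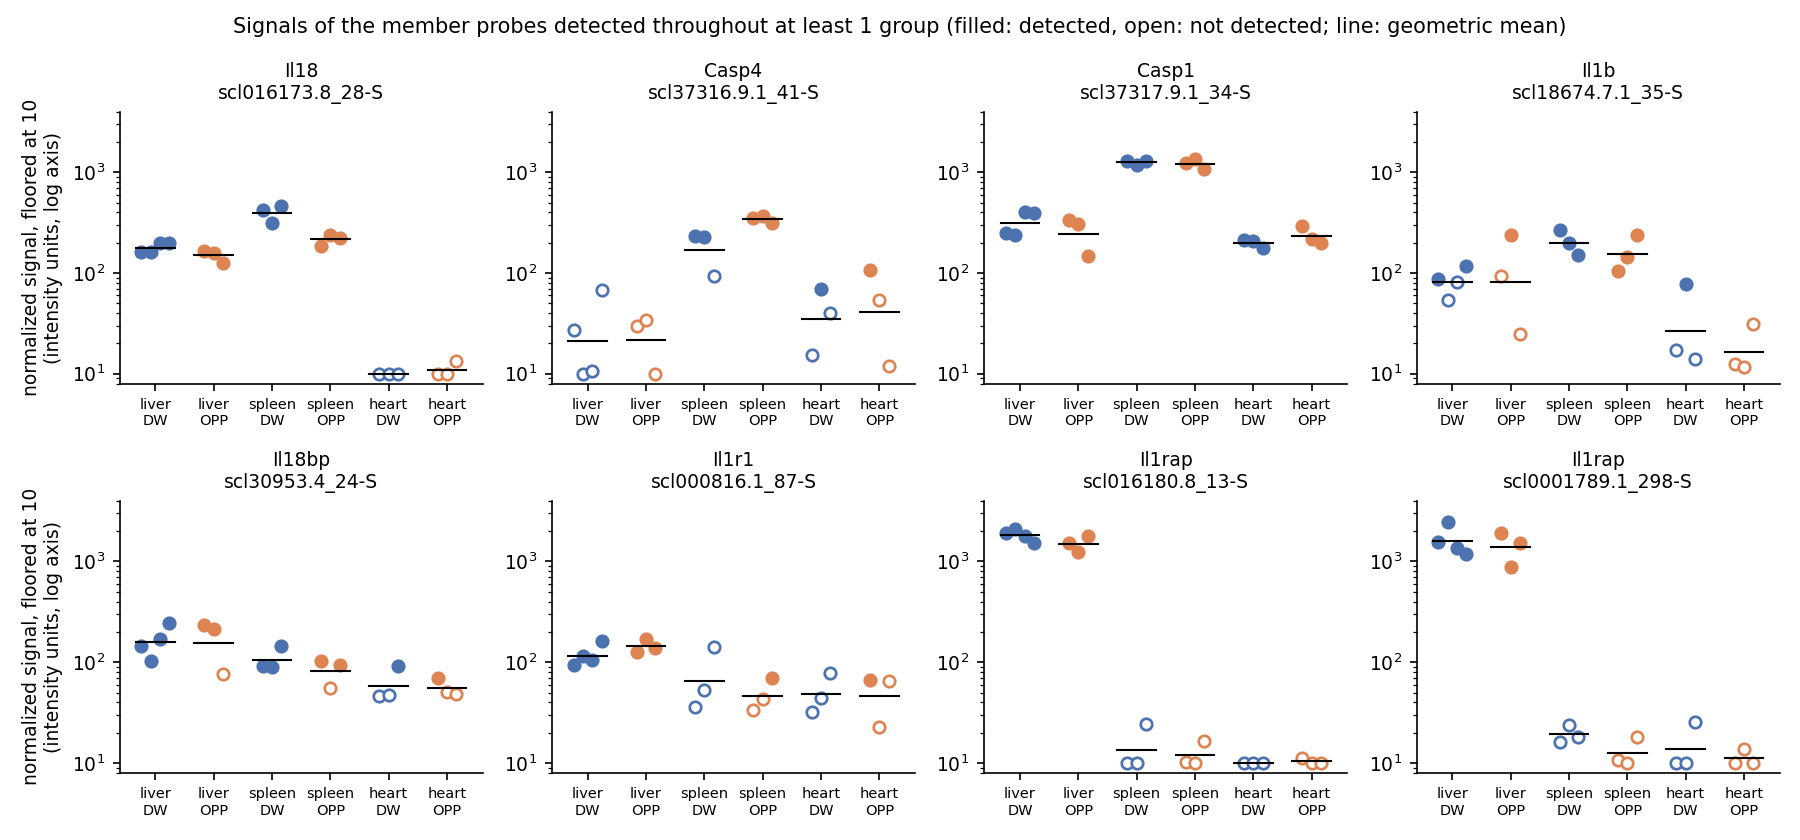
Normalized signals of 8 member probes on a log axis, floored at 10, for each organ and treatment, with filled points for detected arrays and the geometric mean as a line. Probe brightness does not compare between panels. Il18 and Casp4 separate the spleen groups in opposite directions, and the Il1rap signals shown are detected in the liver alone.

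Among the ligands, Il1b was detected on all 6 spleens, at 267.0, 199.2 and 149.1 on water and 105.2, 145.5 and 238.6 on OPP. The groups overlapped, with a log2 difference of -0.37 (standard error 0.35) that single arrays moved. It was -0.10 on leaving out AD + OPP replicate 1, -0.16 on leaving out AD + DW replicate 1, -0.58 on leaving out AD + DW replicate 3 and -0.69 on leaving out AD + OPP replicate 3. In the liver Il1b was detected in AD + DW replicates 1 and 4 at 87 and 118.0 and in AD + OPP replicate 2 at 236.3, and in the heart only in AD + DW replicate 2 at 78.5. That heart also had the highest neutrophil marker mean of the water hearts, but the heart with the highest of all, AD + OPP replicate 1, had an Il1b signal of 12.5 that was not detected.

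Il18 was the member whose spleen signals were lower on OPP without overlap. It stood at 426.2, 312.0 and 457.5 on water and at 187.0, 239.2 and 221.9 on OPP, so that the highest OPP spleen was below the lowest water spleen. The log2 difference was -0.87 (standard error 0.21), and -0.76 without AD + DW replicate 3. Among the spleen probes, 12.3% were lower without overlap. On non-normalized signals scaled to equal medians, which still contain the background, the difference was smaller, -0.26. Macrophage markers, of a cell type that is known to make IL-18, were lower in 5 of 5 measured genes in the same spleens, without overlap in 3. Adgre1, a surface receptor of macrophages, was at 1321.6 to 1752.6 on water and 761.5 to 919.8 on OPP. The part of these cells in the Il18 values was not tested. In the liver Il18 was detected on all 7 arrays, at 160.4 to 199.4 on water and 127.0 to 165.8 on OPP, with a log2 difference of -0.26 (standard error 0.16, limma adjusted p 0.657) that was -0.14 without AD + OPP replicate 3. It was not detected in any heart.

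Il18bp, the inhibitor of IL-18, did not separate the groups in any organ. Its liver signals were 146.4, 103.5, 170.2 and 245.1 on water and 233.5, 213.9 and 76.1 on OPP, and the lowest of these was not detected. The liver difference was -0.02 (standard error 0.43, limma adjusted p 0.989), and its sign rested on single arrays, with -0.31 on leaving out AD + OPP replicate 1 and 0.50 on leaving out AD + OPP replicate 3. The mean log2 signals of 18 acute phase genes were 11.55, 11.52, 12.5 and 13.82 in the same water livers and 14.1, 13.98 and 12.05 in the OPP livers, so that both were high in AD + DW replicate 4 and AD + OPP replicates 1 and 2. Their part in the Il18bp values was not tested. In the spleen Il18bp was at 92.2, 88.8 and 145.9 on water and 103.3, 55.5 and 93.4 on OPP, and in the heart it was detected on 2 of 6 arrays.

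Of the caspases, Casp4 had higher signals in the OPP spleens, as Il1r2 did. Its probe scl37316.9.1_41-S gave 230.1, 225.8 and 92.5 on water, the last of them not detected, and 352.6, 368.3 and 314.9 on OPP. The groups did not overlap, and the log2 difference of 1.03 (standard error 0.36) was 0.60 without AD + DW replicate 3, the array with the high detection limit. In the liver no array gave a detected Casp4 signal, and in the heart AD + DW replicate 2 at 69.4 and AD + OPP replicate 1 at 108.2 did. These were the hearts with the highest neutrophil marker means of their groups. Casp1, whose gene lies at chr9:5298517-5307281 near Casp4 at chr9:5308849-5336791, was detected on all 19 arrays, with overlapping groups in each organ. In the spleen it was at 1301.2, 1177.6 and 1303.2 on water and 1221.8, 1365.9 and 1085.4 on OPP. In the liver it was at 247.0, 237.7, 403.9 and 396.9 on water and 333.0, 307.1 and 145.9 on OPP, with a log2 difference of -0.34 (standard error 0.34, limma adjusted p 0.762) that was 0.04 without AD + OPP replicate 3. In the heart it was at 212.8, 205.4 and 177.2 on water and 292.9, 216.6 and 198.2 on OPP, with a log2 difference of 0.23 (standard error 0.18, limma adjusted p 0.999), and with 0.15 on leaving out AD + DW replicate 3 and 0.07 on leaving out AD + OPP replicate 1.

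**Figure D5:**
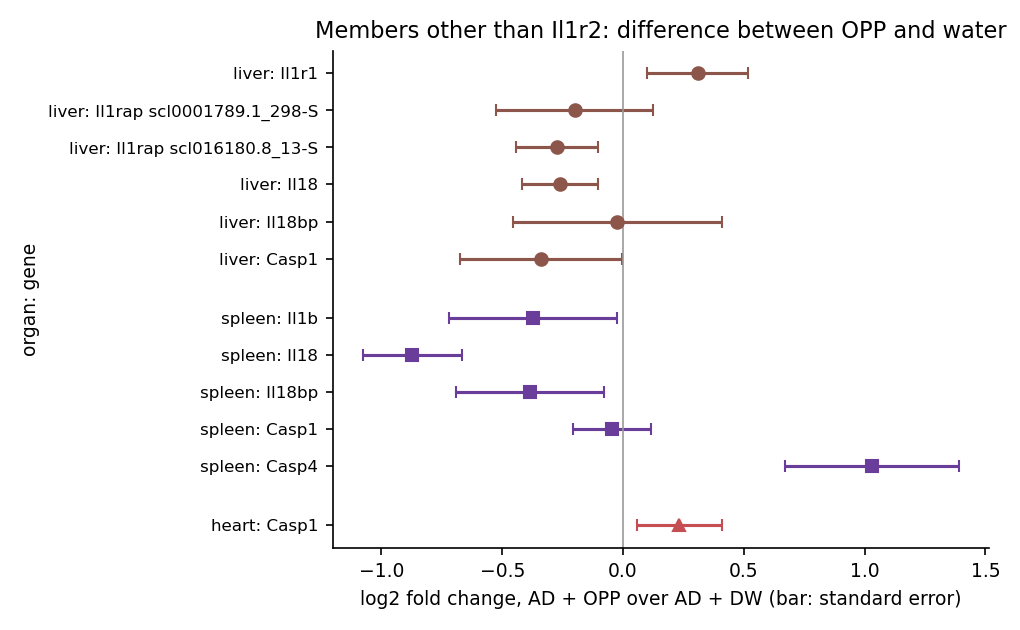
Log2 fold change of AD + OPP over AD + DW for the members other than Il1r2 that were detected throughout at least 1 group, with the standard error of limma as a bar. In the spleen Il18 lies at -0.87 and Casp4 at 1.03, and the liver and heart values lie between -0.34 and 0.31.

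In the liver, 6 member probes of 5 genes were tested, 1 with a higher and 5 with a lower mean log2 signal under OPP. None had groups that did not overlap, where 8.37% of all 6007 liver probes did, and none passed an unadjusted p of 0.05 in limma, where 8.24% of all probes did. After adjustment 0% of the liver probes of any gene passed, with a lowest limma adjusted p of 0.417. In the heart Casp1 was the sole member tested, and its groups overlapped, where 7.71% of the 6580 heart probes did not. Its p did not pass before adjustment, where 3.63% of the heart probes did in limma, and 0% passed after it. The Casp1 effect in the heart exceeded that in the liver by 0.57 on the log2 scale (standard error 0.42, limma adjusted p 0.927 over 4849 probes, of which 0% passed). That value did not pass and ran from 0.20 without liver AD + OPP replicate 3 to 0.79 without liver AD + OPP replicate 1. In the spleen 6 probes of 6 genes were detected throughout a group. Il1r2 and Casp4 were higher without overlap and Il18 was lower without overlap, and 23.5% of all spleen probes had groups that did not overlap in either direction. The median log2 difference of the 6 was -0.21 against -0.07 over all spleen probes tested.

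Levels in the 3 organs were compared on the AD + DW arrays after quantile normalization of all 19 arrays. Adjusted for all 8241 probes, 72.3% differed between spleen and liver, 65.7% between heart and liver and 68.7% between heart and spleen, so that a difference was the usual outcome. The Il1rap probes were higher in the liver, by at least 17.4-fold and 15.2-fold over the spleen and by at least 18.8-fold and 16.4-fold over the heart (limma adjusted p of at most 5.1e-07). Casp1 was highest in the spleen, 5.57-fold over the liver (limma adjusted p 2.48e-06) and 7.29-fold over the heart (limma adjusted p 1.88e-06). The heart level of Casp1 less that of the liver, -0.39 on the log2 scale (standard error 0.20), did not pass (limma adjusted p 0.121). On the deposited normalized signals, which hold no common scale across organs, it was -0.65 and passed (limma adjusted p 0.0237), and on the AD + OPP arrays it was 0.18 (limma adjusted p 0.610). Il18 ran from spleen to liver to heart. It was 2.54-fold higher in the spleen than in the liver (limma adjusted p 1.96e-05), and higher than in the heart by at least 5.59-fold in the spleen and at least 2.20-fold in the liver.

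Il1b was higher in the spleen than in the heart (limma adjusted p 0.00243), where it was detected on 1 of 3 water arrays, so that the size of the difference was uncertain. The heart level less the spleen level was -2.74 on the log2 scale (standard error 0.60), -1.82 with the neqc background correction and normalization of limma, and from -2.23 on leaving out heart AD + DW replicate 3 to -3.51 on leaving out heart AD + DW replicate 2. Its spleen and liver levels, with means of 208 ± 87.3 (SD, n = 3) and 77.5 ± 20.0 (SD, n = 4) on the common scale, had a limma adjusted p of 0.0507. That p fell to 0.0317 without spleen AD + DW replicate 3, to 0.0342 without heart AD + DW replicate 3 and to 0.00623 without heart AD + DW replicate 2, so this comparison was on the edge of the threshold. Il18bp was 2.20-fold higher in the liver than in the heart (limma adjusted p 0.00471). Its spleen level was between them and did not pass against either (limma adjusted p 0.116 against the liver and 0.0908 against the heart). It passed against the heart without heart AD + DW replicate 3 (0.0231) and with the replicate number as a block (limma adjusted p 0.0309, log2 difference -0.61), and against the liver without liver AD + DW replicate 2 (0.0357). Il1r1 was higher in the liver than in the heart, by at least 1.44-fold (limma adjusted p 0.0384). That call was lost, at limma adjusted p between 0.0526 and 0.150, on leaving out any 1 of liver AD + DW replicates 2, 3 and 4, spleen AD + DW replicate 2 and heart AD + DW replicates 1 and 2. Against the spleen Il1r1 had a limma adjusted p of 0.0807 and of 0.0122 without spleen AD + DW replicate 3. In all, 4 of 7 member probes that were detected throughout at least 1 of the compared organs differed between spleen and liver, 5 of 6 between heart and liver and 3 of 4 between heart and spleen, beside the 72.3, 65.7 and 68.7% of all probes.

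Other genes of the pathway were followed through lists of ligands, receptors, signaling proteins, inflammasome genes and targets. Of 6 further ligands of the family 2 had a probe, and of 7 further receptors 5 had one. Il33, an alarmin of the family, was measured in the spleen at 141.2, 157.8 and 126.1 on water, the last of them not detected. On OPP it was at 90.1, 91.9 and 100.6, which did not overlap (log2 difference -0.58, standard error 0.16). In the heart it overlapped, with a log2 difference of 0.48 (standard error 0.38, limma adjusted p 0.999). Il18r1, the ligand-binding receptor of IL-18, overlapped in the spleen, with a log2 difference of -0.43 (standard error 0.23).

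Of the 28 signaling genes downstream of the receptor 17 were measured in each organ. In the spleen 3 were higher and 1 was lower without overlap, 4 of 17 beside the 23.5% of all spleen probes that did not overlap. Myd88, the adaptor of the receptor, was at 116.7, 130.2 and 92.1 on water, the last of them not detected, and 231.5, 206.6 and 286.9 on OPP. Its log2 difference was 1.10 (standard error 0.21). Irak3, a kinase relative that restrains the pathway, was at 281.4, 304.2 and 252.9 on water and 463.7, 507.4 and 461.1 on OPP, a log2 difference of 0.78 (standard error 0.16). Neither gene overlapped between the groups. Peli1, a ubiquitin ligase of the pathway, overlapped, with -0.64 (standard error 0.34). In the liver 10 of the 17 were higher and 7 lower and none passed an unadjusted p of 0.05 in limma, with Ikbkg, Tab2, Mapk9 and Ecsit nearest at limma adjusted p of 0.616 to 0.684. In the heart 9 were higher and 8 lower, again with none under an unadjusted p of 0.05 in limma, and Irak3, Irak2, Mapk14 and Mapk9 had the smallest p.

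Of 21 genes of inflammasomes and of IL-1 processing, 11 were measured in the spleen, and 6 were higher and 2 lower without overlap, beside 11.1% and 12.3% of all spleen probes. The largest differences were those of Ctsg, Prtn3 and Elane, with log2 values of 2.46, 2.45 and 2.32 (standard errors 0.48, 0.60 and 0.51). These encode proteases of neutrophil granules that can cut IL-1 family cytokines. Ctsg was at 654.8, 2472.2 and 782.9 on water and 6570.3, 5715.2 and 5619.1 on OPP, with AD + DW replicate 2 again the highest of the water spleens. In the liver 4 genes were measured. Nlrp3, the sensor of the best-known inflammasome, was at 77.9, 97.0, 112.0 and 97.8 on water and 129.9, 154.2 and 148.3 on OPP. It was detected on all OPP livers but on only 2 of the water livers. The groups did not overlap, as was so for 8.37% of all liver probes. The Nlrp3 log2 difference of 0.59 (standard error 0.16) had an unadjusted p of 0.00531 and an adjusted p of 0.590 in limma, so it did not pass. Gsdmd, Ctsb and Casp8 overlapped in the liver, as Casp8 and Ctsb did in the heart.

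Of 23 genes known to respond to IL-1, 9 were measured in the spleen, 7 higher and 1 lower without overlap, beside 11.1% and 12.3% of all spleen probes. Their median log2 difference was 2.10, also with Saa3 at its bound, against -0.07 over all spleen probes. Saa3, Hp and Lbp encode acute phase proteins. Saa3 was at 59.3, 48.4 and 114.0 on water, where no array detected it, and at 472.4, 165.0 and 1035.4 on OPP, at least 5.23-fold higher. Hp and Lbp had log2 differences of 2.62 and 2.44 (standard errors 0.51 and 0.47), and Lbp was detected on 1 of the 3 water spleens. In the liver 12 of 14 measured targets had a higher mean and 2 a lower one, with a median of 1.27. In limma 1 passed an unadjusted p of 0.05, beside 8.24% of all liver probes, and none passed after adjustment. Mean log2 signals of 15 targets detected on some liver array were 9.50, 9.58, 10.7 and 12.4 on water. On OPP they were 12.42, 12.52 and 10.17, so that AD + DW replicate 4 was close to AD + OPP replicates 1 and 2. Fgb, which encodes a fibrinogen chain, and Lbp had the smallest p, with log2 differences of 1.98 and 1.41 (limma adjusted p 0.590 and 0.599). Fgb was at 14.2, 69.4, 56.9 and 162.0 on water, the last alone detected, and 331.3, 263.7 and 115.6 on OPP. Its difference thus rests on water signals that were mostly below detection. Lbp was at 1109.2, 1187.9, 1661.4 and 4822.0 on water and 8118.8, 7617.7 and 1771.0 on OPP, so that AD + OPP replicate 3 was close to AD + DW replicate 3. In the heart 8 of 9 targets had a higher mean and none passed an unadjusted p of 0.05 in limma. Lcn2, a protein of neutrophils and of the acute phase, and Mmp3, a matrix protease, were nearest at log2 differences of 1.97 and 0.88 (limma adjusted p 0.999 for both). On water, Lcn2 was detected in only 2 of the hearts. This list shares members with the acute phase genes and with proteins of neutrophils, and the part of either in these values was not tested.

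The probes whose pattern was most like that of Il1r2 were ranked by Pearson correlation of log2 signals over the 19 arrays among 7623 named probes. With each organ's mean removed, the 6 highest were Lrg1 (0.943), Nfil3 (0.899), Orm1 (0.885), Atp6v1b2 (0.875), Mapkapk2 (0.864) and Adpgk (0.860). Lrg1 encodes a secreted glycoprotein of neutrophil granules and of the acute phase, Nfil3 a transcription factor and Orm1 an acute phase protein. The mean signal of Lrg1 was 1324 on water and 5564 on OPP in the spleen, and that of Adpgk, a glucokinase that uses ADP, was 581.6 and 1780. The arrays share organ, treatment and scaling, and the measure is carried by the spleen AD + OPP arrays, the only ones where Il1r2 was detected. With the 6 group means removed as well, the highest were Zscan12 (0.892), Prkag1 (0.875), Ube2d2a (0.867), H3c13 (0.862), Gstm5 (0.858) and Mmp14 (0.857), over Il1r2 signals that were near the floor on most arrays. Among the members, the organ-centered correlation with Il1r2 was highest for Casp4 at 0.429 and lowest for Il18 at -0.584. It follows the spleen contrast for which the list was drawn up, so it is a description only. With the group means removed, Casp4 was at 0.354 and Il18 at 0.299, and Il18bp was highest at 0.745.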

How the data were processed

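Total RNA from livers, spleens and hearts was hybridized by the authors to Illumina MouseRef-8 arrays. The deposited signal intensity of each probe, which the authors had background subtracted and rank invariant normalized within each organ (BeadStudio 1.5.1.3), was used, together with the deposited detection p-value and the non-normalized intensity. Between the normalized table and the series matrix 0 cells differed. Symbols came from the platform annotation, which named 19398 of 24048 probes, and were updated through gene identifiers. RefSeq coordinates and windows are those of GRCm38.p6.

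A floor of 10 was applied to the signals before the log2 was taken. Probes detected (p under 0.01) on every array of either group were compared with limma 3.58.1 in R 4.3.3, two-sided, with Benjamini-Hochberg adjustment over all probes tested and a threshold of 0.05. The limma test stands in for the Illumina Custom error model of the methods, and it was tested on simulated data with known changes. Where a group had no detected array the fold is a bound in mean log2 signals, for which every array of that group took the higher of the probe's signal and the lowest signal among its detected probes. Organ contrasts used quantile normalized signals, without a block. Deviations of same-numbered AD + DW arrays from their group means correlated at 0.110, 0.121 and 0.168 between spleen and heart, which may mark pairs, and at -0.123 to 0.0763 between either organ and the liver. Replicate 3 of the water and OPP spleens, which are different mice, reached 0.189, so values of this size cannot settle the pairing. The labels do not name shared mice, and the fit with the replicate number as a block, over all 3 organs, was an alternative. Members and lists were chosen with earlier results of these data known. Besides the members, the genes named were the 2 of each pathway list with the smallest p per direction in liver and heart, the 3 with the largest difference in the spleen, and the 6 probes most like Il1r2 by each measure. Marker genes named beside them were chosen after their values were seen. The number of arrays limits the precision. The authors' own comparisons and the arrays of the normal diet were not used here. Alternative normalizations, floors, filters, weights, blocks and tests were run, as was leaving out each array.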

Additional observations from a re-analysis of the deposited data

How the results depend on the processing

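Over 16 or 17 alternatives each, the numbers of members that passed stayed at 0 in the liver, in the heart and for the difference between them, also with the methods' t-test after Benjamini-Hochberg adjustment, and the 12 calls between organs ran from 11 to 14. In the spleen the Il1r2 difference of 4.16 was 1.92 after median scaling and 1.78 after quantile normalization of the non-normalized signals, which still contain the background, and 3.50 to 4.52 on leaving out each array. Within an organ, deviations of same-numbered water and OPP arrays correlated between -0.397 and 0.189. A replicate block left the Il1r2 difference at 4.16 and the calls at 0, 0 and 13 for liver, heart and organs, and for heart less spleen it changed the call of Il18bp only. Differences near 0 changed sign. That of Il18bp in the liver, -0.02, was 0.0034 after quantile normalization, 0.187 with array weights, 0.187 with the replicate block and -0.31 to 0.50 on leaving out each array. The liver difference of Il1rap with scl0001789.1_298-S ran from -0.45 to 0.11 and that of Casp1 from -0.56 to 0.038 on leaving out each array. In the spleen, median scaling gave 0.017 for Il1b, 0.037 for Il18bp and 0.378 for Casp1, and leaving out each array gave -0.13 to 0.04 for Casp1. The heart level of Casp1 less that of the liver was 0.179 on the AD + OPP arrays in place of AD + DW. The causes of these changes were not tested. Signal over background limits Il1r2 outside the OPP spleens, and Il1rn and Il1a everywhere.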
